A study of Mus musculus with 8 samples.

Results

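Homeostatic astrocyte genes are the genes through which resting astrocytes take up glutamate, buffer potassium, move water and keep their metabolism, and 10 of them were followed across the 8 libraries of the series: Slc1a2, Slc1a3, Gja1, Gjb6, Kcnj10, Aqp4, Aldh1l1, Glul, Aldoc and Sox9. They are taken by name, with no threshold on their values, and each was found once in both deposited tables, which list 54532 and 28229 genes. All 10 passed the filter on low counts that left 17581 and 17565 genes to be tested.

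The series set C57BL/6 mice with a photothrombotic stroke followed by restraint stress (PTS + RS) against mice with restraint stress and no stroke (RS), and then PTS + RS mice given the HDAC3 inhibitor RGFP109 against PTS + RS mice given NaCl. All 8 libraries carry day 21 on their labels, and restraint stress was applied in every group. The stroke was made through the skull over the right cortex of male mice with Rose Bengal and light, and RGFP109 was given under the skin at 60 mg/kg once per day, for 2 weeks by the labels and methods and for 21 days by a legend, a difference that could not be settled here. The PTS + RS and RS libraries (2 each) are labelled cortex. Of the 2 RGFP109 and the 2 NaCl libraries, replicate 1 is labelled cortex and replicate 2 amygdala. The labels give no age, and the methods put mice of the open-field test at around 3 months old. The mice labelled NaCl, which had stroke and restraint, appear to be those that the study elsewhere calls vehicle. The methods dissolve RGFP109 in DMSO and dilute it in cyclodextrin with sodium acetate, a different solution from NaCl. Whether the control mice were given that carrier is not stated. Whether a library is 1 mouse or a pool of mice is not stated, so the p-values measure the spread between these libraries, which may be technical.

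Astrocytes clear synaptic glutamate through the transporters GLT-1 and GLAST and turn it into glutamine, pass ions and metabolites to each other through connexin gap junctions, and take up potassium and water at endfeet that wrap the vessels. After an injury to the cortex, astrocytes close to the damage become reactive, raise intermediate filament genes such as Gfap and may change these homeostatic functions. The genes followed here cover glutamate uptake (Slc1a2 encodes GLT-1, Slc1a3 GLAST), gap junctions (Gja1 encodes connexin 43, Gjb6 connexin 30), potassium and water (Kcnj10 encodes the channel Kir4.1, Aqp4 aquaporin-4), metabolism (Glul encodes glutamine synthetase, Aldoc the brain aldolase, Aldh1l1 a folate enzyme used as an astrocyte label) and regulation (Sox9, an astrocyte transcription factor).

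All 10 are protein-coding, and the deposited tables place them on build GRCm38 as whole genes. The glutamate transporter genes Slc1a2 (ENSMUSG00000005089) and Slc1a3 (ENSMUSG00000005360) lie at chr2:102658659-102790784 on the plus strand and chr15:8634124-8710764 on the minus strand. The connexin genes Gja1 (ENSMUSG00000050953) and Gjb6 (ENSMUSG00000040055) lie at chr10:56377330-56402513 on the plus strand and chr14:57123303-57133611 on the minus strand. Kcnj10 (chr1:172341210-172374085) and Glul (chr1:153899944-153909723) share chromosome 1, Aldoc (chr11:78322968-78327781) and Sox9 (chr11:112782224-112787760) share chromosome 11, all on the plus strand, and Aldh1l1 (chr6:90486427-90600203, plus strand) lies apart. Teddm2, a gene on the opposite strand within the span of Glul, had 27 to 55 counts per library, and Gm37310, on the strand of Slc1a3 within its span, had 17 to 70, against 18743 or more for Glul and 7846 or more for Slc1a3.

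The promoter windows of 4 of these genes are shown because they place side by side both connexins, of which 1 passed the test after stroke and 1 did not, together with Slc1a3 and Kcnj10, which also passed. RefSeq promoter sequences of build GRCm38.p6 were matched by symbol for 8 of the 10 genes, in 9 windows since Aldoc has 2. The 250 bases before the RefSeq start are printed 5′ to 3′ on the strand of the gene, in lower case. Capitals mark a CCAAT box, a TATA box spelled TATAAA or a STAT-type motif spelled TTCNNNGAA, on either strand. The windows are chr15:8710808-8711057 on the minus strand, chr10:56377050-56377299 on the plus strand, chr14:57133612-57133861 on the minus strand and chr1:172340960-172341209 on the plus strand.
Slc1a3: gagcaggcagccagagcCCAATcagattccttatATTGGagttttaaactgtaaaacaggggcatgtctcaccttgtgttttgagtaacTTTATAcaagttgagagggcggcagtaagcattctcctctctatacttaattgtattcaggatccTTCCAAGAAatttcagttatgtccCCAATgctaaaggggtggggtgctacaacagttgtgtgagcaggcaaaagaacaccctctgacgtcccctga
Gja1: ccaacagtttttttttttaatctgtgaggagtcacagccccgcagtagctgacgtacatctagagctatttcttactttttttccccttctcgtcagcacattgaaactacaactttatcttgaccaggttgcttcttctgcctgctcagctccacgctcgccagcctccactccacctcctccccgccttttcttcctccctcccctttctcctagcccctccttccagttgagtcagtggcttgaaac
Gjb6: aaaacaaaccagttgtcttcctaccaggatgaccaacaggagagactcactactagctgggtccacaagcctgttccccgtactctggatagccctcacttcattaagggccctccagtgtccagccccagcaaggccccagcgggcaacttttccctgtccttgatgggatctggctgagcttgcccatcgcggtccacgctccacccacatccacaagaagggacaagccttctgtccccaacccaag
Kcnj10: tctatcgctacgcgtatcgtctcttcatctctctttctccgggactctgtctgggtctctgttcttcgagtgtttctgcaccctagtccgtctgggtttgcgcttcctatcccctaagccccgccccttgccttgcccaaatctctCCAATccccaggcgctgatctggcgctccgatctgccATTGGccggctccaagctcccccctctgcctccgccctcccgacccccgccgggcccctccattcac

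The Slc1a3 window held 3 CCAAT boxes, 1 STAT-type motif and 1 TATA box spelling, which reads on the opposite strand at -161 from the start. The Kcnj10 window held 2 CCAAT boxes, and neither connexin window held any of the motifs searched. Over the 9 windows, a CCAAT box was found in 4, against 33.9% of all 32851 promoter windows of the same length. A STAT-type motif was found in 2 of the 9 windows and in 7.02% of all, a TATA box in 1 and in 12.4% of all, and an NFI half-site (TTGGCA, whose first letters can be shared with a CCAAT box read on the other strand) in 1 and in 12.3% of all. A SOX-type motif (ACAAAG or ACAATG) was found in 0 of the 9 windows and in 25.2% of all. The letters GC made up between 44.8% and 64.8% of each window, against a median of 52.4% over all windows. The Slc1a2 and Aldh1l1 windows lie 47779 and 64366 bases inside the gene from its deposited start, so they belong to another transcript start than the one that bounds the deposited gene.

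Total counts ran from 15902013 to 21712033 per library, and the lowest count of any of the 10 genes was 413, for Sox9. The labelled tissue was checked against marker genes before any comparison. Each list was summed over those of its genes that passed the filter on low counts. The olfactory bulb sum covers 6 of 10 genes with RGFP109 and NaCl and 7 of 10 with PTS + RS and RS. The choroid plexus sum covers 9 and 10 of 10. The NaCl library of replicate 1, labelled cortex, had a summed level of 1286 CPM (read counts scaled to normalised library size) over the olfactory bulb list, against 29.3 to 42.7 in the other 3 libraries of its table. Its summed level of cerebral cortex neuron markers was 638 CPM against 1616 to 1968 CPM. The RGFP109 and NaCl libraries labelled amygdala had 1516 and 1645 CPM of striatum markers against 264 and 330 CPM in those labelled cortex. The summed amygdala list stood at 307 and 300 CPM against 362 and 337 CPM. Gene by gene, 6 of the 10 amygdala genes tested were higher with the amygdala label, with a median log2 fold change of 0.06. In 4 of them both amygdala-labelled libraries lay above both cortex-labelled ones, and in 1 both lay below. Choroid plexus markers were at 1528 CPM in the RGFP109 library of replicate 1 and between 17.0 and 46.4 CPM in the other 3, and at 51.8 CPM in PTS + RS replicate 2 against 1660 to 3894 CPM in the other 3 libraries of that table. The 4 libraries of the stroke comparison had 1462 to 1836 CPM of cortex neuron markers and 40.0 to 49.5 CPM of olfactory bulb markers, so the olfactory bulb list was low in all 4.

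**Figure D1:**
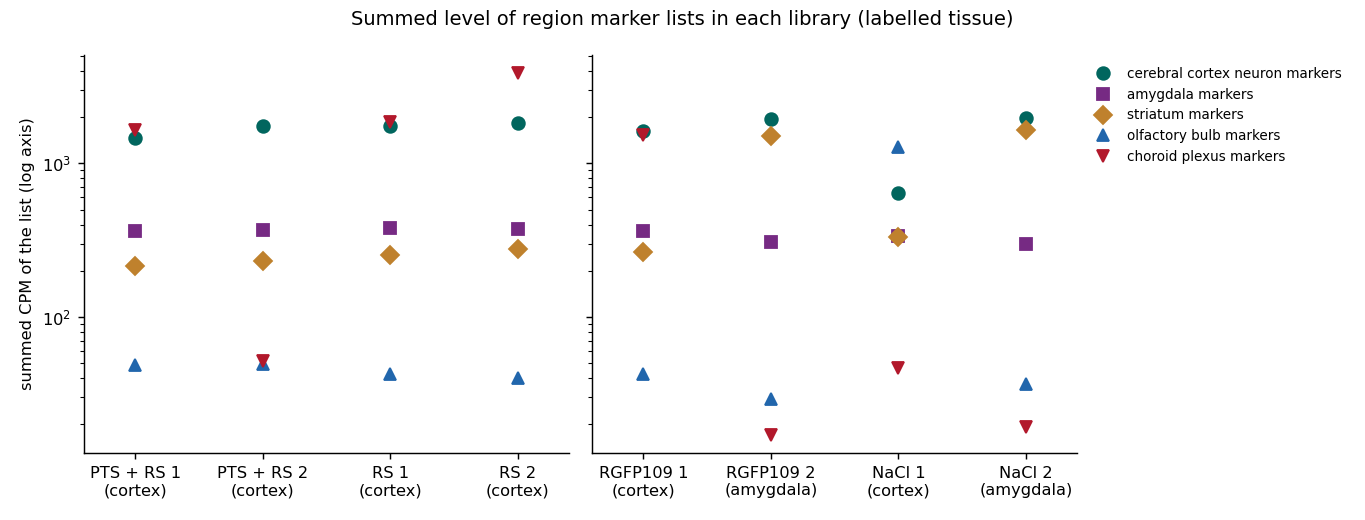
Summed CPM (log axis) of the genes of 5 region marker lists that passed the filter on low counts, in each of the 8 libraries. Libraries are named with their labelled tissue below the axis, and each symbol is 1 list in 1 library. The NaCl replicate 1 library stands at 1286 CPM of olfactory bulb markers, and both libraries labelled amygdala, at 1516 and 1645 CPM, stand above the others in striatum markers.

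The first comparison asked how cortex after stroke and restraint differed from cortex after restraint alone. The water channel gene Aqp4 was 2.01-fold higher in the PTS + RS group, and Slc1a3, Gja1 and Kcnj10 were 1.51-fold, 1.496-fold and 1.38-fold higher. These 4 of the 10 genes passed the test and 0 were lower, where 2.96% of the 17581 genes tested were higher and 0.586% were lower once edgeR p-values were adjusted over all of them (adjusted p under 0.05). In 8 of the 10, both PTS + RS libraries lay above both RS libraries, which was so for 25.7% of all genes tested, and in 0 of the 10 did both lie below, against 24.5% of all. The log2 fold change of every one of the 10 was above 0, against 49.7% of all genes, and their median was 0.32 against -0.002 over all genes. In bulk tissue, more cells of a type and more RNA per cell cannot be told apart.

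Aqp4, which encodes the water channel of astrocyte endfeet, stood at 282 and 207 CPM in the PTS + RS libraries and at 128 and 115 CPM in the RS libraries. Both stroke libraries were above both RS libraries, and the stroke library of replicate 1 was the highest. Its log2 fold change was 1.01 (SE 0.145, 95% interval 0.67 to 1.35, adjusted p = 0.0137). Kcnj10, the potassium channel gene found at the same endfeet, stood at 261 and 247 CPM against 195 and 173 CPM. The groups did not overlap, and the log2 fold change was 0.46 (SE 0.0867, adjusted p = 0.0375). On the scale of FPKM, read fragments scaled by library size and gene length, the ratio of Kcnj10 to Aqp4 was 0.87 and 1.12 in the PTS + RS libraries and 1.43 and 1.41 in the RS libraries, so the order of the pair in FPKM was the same in both RS libraries and differed between the PTS + RS libraries.

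The glutamate transporter genes did not pass together. Slc1a3 stood at 769 and 720 CPM in the PTS + RS libraries and at 492 and 495 CPM in the RS libraries, with the smallest spread between RS libraries among the genes that passed. Its log2 fold change was 0.59 (SE 0.0869, adjusted p = 0.0149). Slc1a2, the highest of the 10 in CPM here, stood at 3657 and 3151 CPM against 2587 and 2675 CPM. The Slc1a2 libraries did not overlap either, but the log2 fold change of 0.37 (95% interval 0.09 to 0.65) did not pass the test (adjusted p = 0.167). It passed in 4 of 11 alternatives, among them DESeq2 (adjusted p = 0.0183) and no filter on low counts (edgeR, adjusted p = 0.00704). The FPKM ratio of Slc1a2 to Slc1a3 was 3.09 and 2.85 in the PTS + RS libraries and 3.42 and 3.51 in the RS libraries, and was lower in both stroke libraries. No test of the difference between the genes was made.

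Of the connexin genes, Gja1 stood at 278 and 236 CPM in the PTS + RS libraries and at 179 and 165 CPM in the RS libraries. The groups did not overlap, and the log2 fold change was 0.58 (SE 0.0999, adjusted p = 0.0273). Gjb6 stood at 63.2 and 53.6 CPM against 52.4 and 44.0 CPM, so the lower stroke library was close to the higher RS library. Its log2 fold change was 0.27 (SE 0.122, 95% interval -0.01 to 0.56, adjusted p = 0.301). The upper end of that interval lay just under the 0.58 of Gja1, but the 95% interval of Gja1 ran from 0.35 to 0.82 and overlapped it. The difference between the connexin genes was not tested. In FPKM, Gja1 was above Gjb6 in both stroke libraries (ratios of 1.149 and 1.148) and below it in both RS libraries (ratio 0.89 and 0.98).

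**Figure D2:**
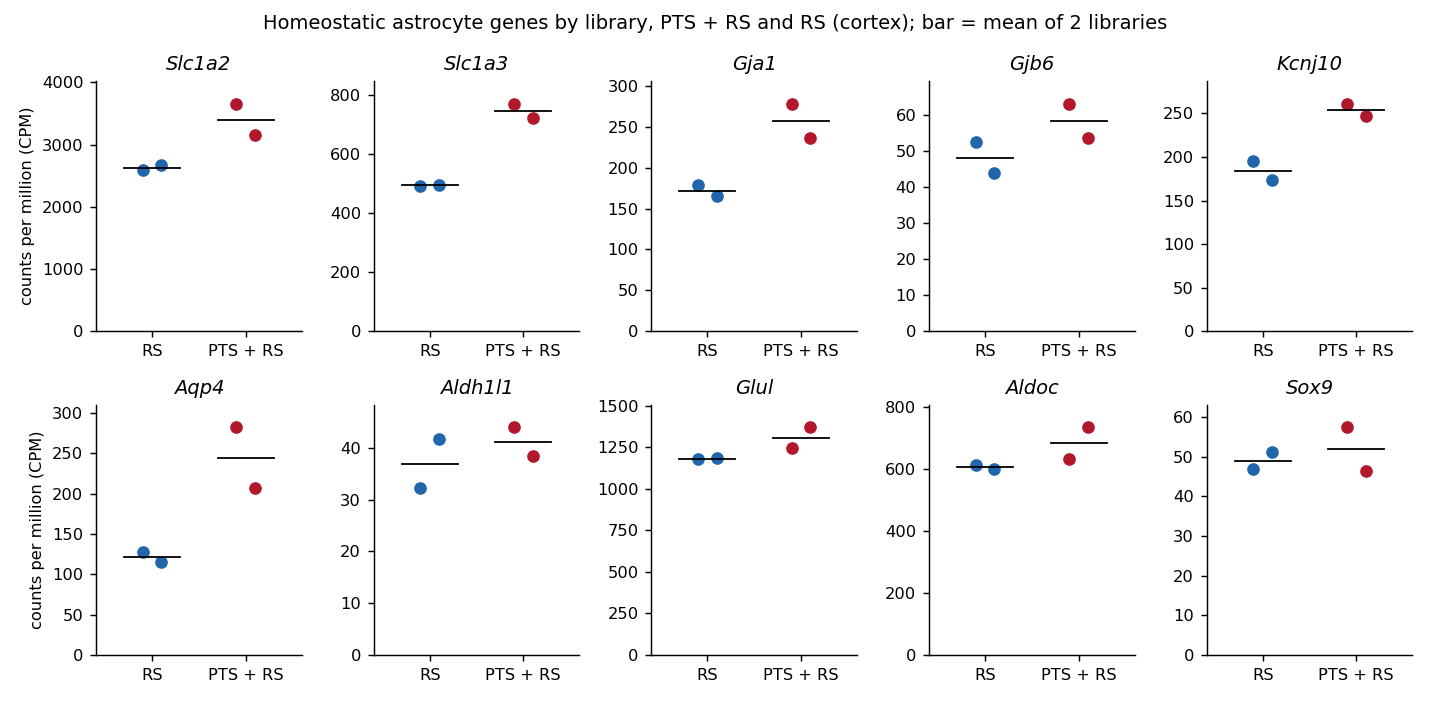
CPM of each of the 10 genes in the 2 RS (blue) and 2 PTS + RS (red) cortex libraries; points are libraries, bars the mean of 2, and each vertical axis starts at 0. The points of Aldh1l1 and Sox9 overlap between the groups, and those of the other 8 genes do not.

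The metabolic genes and the transcription factor did not pass the test. Glul stood at 1246 and 1368 CPM in the PTS + RS libraries and at 1178 and 1183 CPM in the RS libraries (log2 fold change 0.15, SE 0.0995, adjusted p = 0.496). Aldoc stood at 631 and 735 CPM against 613 and 600 CPM (log2 fold change 0.17, SE 0.102, adjusted p = 0.435). For both enzymes the groups did not overlap, and the stroke library of replicate 2 was the highest. The stroke library of replicate 1 was the highest for all the other genes followed, namely Slc1a2, Slc1a3, Gja1, Gjb6, Kcnj10, Aqp4, Aldh1l1 and Sox9. Aldh1l1, at 44.0 and 38.5 CPM against 32.2 and 41.6 CPM, had a log2 fold change of 0.16 (95% interval -0.18 to 0.50, adjusted p = 0.616). Sox9 stood at 57.3 and 46.3 CPM against 46.9 and 51.0 CPM (log2 fold change 0.08, 95% interval -0.20 to 0.37, adjusted p = 0.783). The Aldh1l1 and Sox9 libraries overlapped between the groups.

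The count of genes that passed changed with every library left out. Without RS replicate 1 or RS replicate 2, 1 of the 10 passed, and in both cases it was Aqp4 (adjusted p = 0.00716 and 0.0155), where 1.91% and 1.84% of all genes were higher. Without PTS + RS replicate 1, 7 of the 10 passed, namely the 4 above with Slc1a2, Glul and Aldoc, where 5.58% of all genes were higher. Without PTS + RS replicate 2, the library low in choroid plexus markers, 6 passed, namely the same 4 with Slc1a2 and Gjb6, where 7.69% of all genes were higher. With limma-trend on log2 FPKM, 1 of the 10 passed with either offset, Slc1a3, where 1.73% (offset of 1) and 1.79% (offset of 0.1) of all genes were higher. In these limma-trend fits the calls of Aqp4 (adjusted p = 0.0550 with an offset of 1 and 0.0514 with 0.1), Gja1 and Kcnj10 were lost. Each fit that leaves out a library assumes that the lone library of its group varies like those of the other group. The median log2 fold change of the 10 lay between 0.27 and 0.43 over the 4 fits that left out a library.

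**Figure D3:**
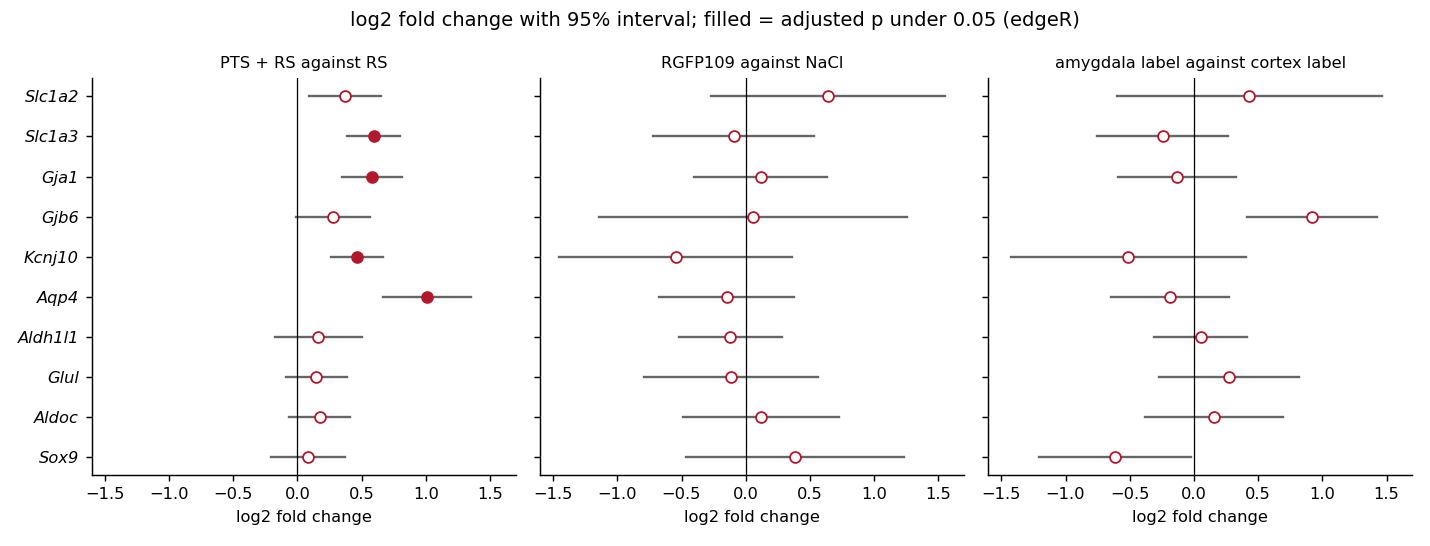
The log2 fold change of each of the 10 genes (points) with its 95% interval (lines) in 3 comparisons; filled points have an adjusted p under 0.05 in edgeR's test. Filled points appear only for Slc1a3, Gja1, Kcnj10 and Aqp4 in PTS + RS against RS, and the intervals are wider in the other comparisons.

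Genes of other cell types moved alongside. Of 12 microglia markers, 12 were higher, with a median log2 fold change of 2.03 and summed levels of 1534 and 1310 CPM against 356 and 321 CPM, and none of the 12 was at 0 in any library. Of the 12 neuron markers 0 passed (median -0.11), of the 12 endothelial markers 0 passed (median 0.22), and of the 12 oligodendrocyte markers 1 was higher, Ugt8a (median 0.22). Choroid plexus markers had a median of -1.81 with 0 of 10 past the threshold. The part of any of these in the astrocyte gene values was not tested.

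Other astrocyte genes placed the 10 in context. Of 15 genes of reactive astrocytes, 7 were higher and 0 lower, with a median log2 fold change of 1.60. The 5 with the largest change were Lcn2 (an iron-binding secreted protein), Cd44 at 2.41 (a hyaluronan receptor), Gfap at 2.27 (the astrocyte intermediate filament), Serpina3n at 2.18 (a protease inhibitor) and Vim at 2.10 (another intermediate filament). Lcn2 had only 2 and 3 counts in the RS libraries against 104 and 136 in the PTS + RS libraries, a ratio of 48.2 with a 95% exact binomial interval of 20.4 to 150 that covers counting error only. Lcn2 and Cd44 are low in FPKM, and on log2 of FPKM plus 1 their values were 1.80 and 1.41, which puts both below Gfap. Gfap rose from 363 ± 12.6 CPM to 1755 ± 429 CPM (mean ± SD, n = 2), and its adjusted p was 0.00112. Several of these genes, Vim and Cd44 among them, are also used by other cells.

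Among 18 further genes of astrocyte metabolism and secretion, 4 were higher and 0 lower, with a median of 0.41. They were Apoe at 1.08 (the lipid carrier), Lcat at 0.76 (which esterifies cholesterol on lipoproteins), Prdx6 at 0.73 (an antioxidant enzyme) and Pla2g7 at 0.60 (a phospholipase that breaks down platelet-activating factor). Of these, Apoe is also expressed by microglia. Among 12 receptors, regulators and markers, 1 was higher, S100b at 0.73 (a calcium-binding protein), with a median of 0.16. Among 13 further transport, channel and junction genes, the list closest in function to Slc1a3, Gja1, Kcnj10 and Aqp4, 0 passed in either direction, the median was 0.06, and 5 of the 13 were below 0. At an unadjusted p under 0.05 there were 6 (4 above 0 and 2 below), against 17.9% of all genes tested. In 7 of the 13 both stroke libraries lay above both RS libraries, and in 4 both lay below. Named after their values were seen, Atp1b2, a sodium pump subunit, stood at 0.40, Mlc1 and Hepacam, membrane proteins of the endfoot, at 0.38 and 0.36, and Slc6a9 (the glycine transporter GlyT1) and Slco1c1 (a thyroid hormone transporter) at -0.32 each.

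**Figure D4:**
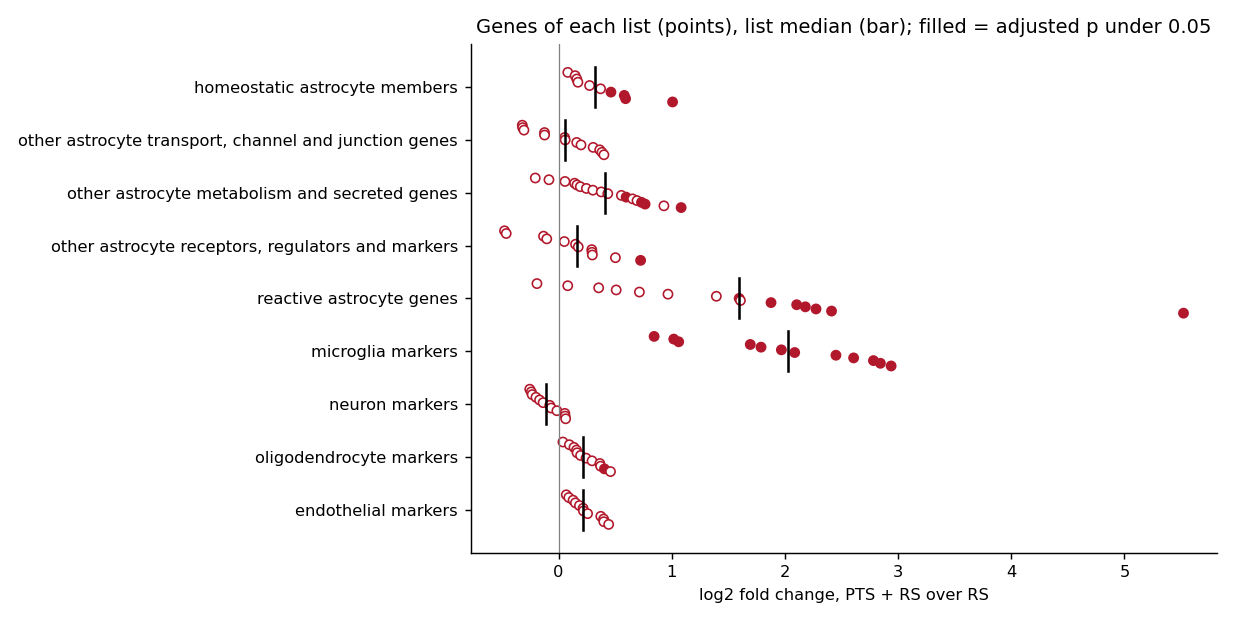
The log2 fold change of each gene (points) in 9 lists for PTS + RS over RS; filled points have an adjusted p under 0.05 and black bars are list medians. The 10 homeostatic genes have a median of 0.32, between the 0.06 of the other transport, channel and junction genes and the 1.60 of the reactive astrocyte genes.

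The second comparison asked how the brain of PTS + RS mice differed with RGFP109. None of the 10 genes passed the test, and neither did any of the 17565 genes tested (0% higher and 0% lower by edgeR, with 206 genes, or 1.17%, at an unadjusted p under 0.05 and 0 of the 10 among them). The median log2 fold change of the 10 was -0.02, as it was over all genes, and 5 of the 10 were above 0, against 47.4% of all. Slc1a2 was the one gene with both RGFP109 libraries above both NaCl libraries, and Aldh1l1 the one with both below, where 12.8% and 13.8% of all genes were so placed. The typical variation between libraries of 1 group, given as edgeR's biological coefficient of variation, was 32.1% here against 11.4% in the stroke comparison. Each group here holds 1 library labelled cortex and 1 labelled amygdala, so the 32.1% includes any difference between tissues. All libraries of the stroke comparison are labelled cortex.

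Slc1a2 stood at 2764 and 3188 CPM in the RGFP109 libraries and at 1396 and 2420 CPM in the NaCl libraries (log2 fold change 0.64, 95% interval -0.27 to 1.55). The lowest value was that of the NaCl library with olfactory bulb genes, and without it the log2 fold change was 0.29. Slc1a3 stood at 607 CPM in both RGFP109 libraries and at 754 and 542 CPM in the NaCl libraries, so the NaCl libraries lay on either side (-0.09, 95% interval -0.72 to 0.53). Here the NaCl library of replicate 1 was the highest of the 4, whereas for Slc1a2 it was the lowest. Its FPKM ratio of Slc1a2 to Slc1a3 was 1.204, against 2.90 to 3.42 in the other 3 libraries of the table.

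Kcnj10 stood at 168 and 180 CPM in the RGFP109 libraries and at 335 and 173 CPM in the NaCl libraries (log2 fold change -0.55, 95% interval -1.45 to 0.36). For Kcnj10 the difference rested on 1 library, since without NaCl replicate 1 the value was 0.0017. Aqp4 stood at 145 and 148 CPM against 184 and 140 CPM (-0.15), with the same library on top, and at 0.052 without it. Gja1 stood at 212 and 222 CPM against 224 and 177 CPM (0.12). Gjb6 stood at 51.4 and 80.4 CPM against 38.1 and 88.5 CPM (0.06), and here the libraries separated by labelled tissue and not by treatment.

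Glul stood at 1331 and 1813 CPM in the RGFP109 libraries and at 1633 and 1766 CPM in the NaCl libraries (log2 fold change -0.11). Aldoc stood at 752 and 712 CPM against 579 and 772 CPM (0.12). Both overlapped between the groups. Aldh1l1 stood at 51.9 and 54.7 CPM against 57.3 and 58.6 CPM (-0.12, 95% interval -0.52 to 0.28). Sox9, at 45.1 and 29.8 CPM against 35.0 and 22.5 CPM, had a log2 fold change of 0.38 (95% interval -0.47 to 1.23), and its RGFP109 library was above the NaCl library of the same labelled tissue in both pairs. The interval of Gja1 ran from -0.40 to 0.63, so a difference as large as the 0.58 seen after stroke lay within it.

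**Figure D5:**
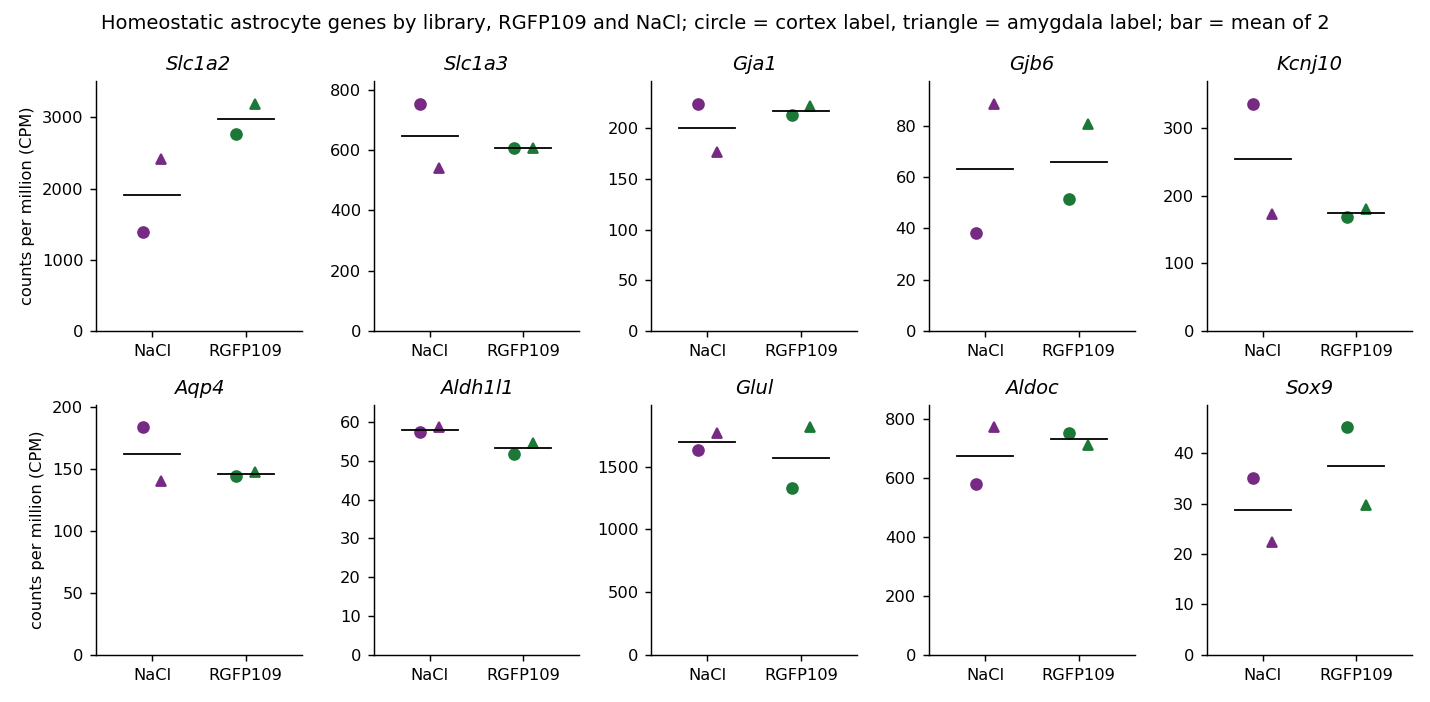
CPM of each of the 10 genes in the 2 NaCl (purple) and 2 RGFP109 (green) libraries; circles are labelled cortex, triangles amygdala, bars the mean of 2, and each vertical axis starts at 0. The cortex-labelled NaCl library is lowest for Slc1a2, Gjb6 and Aldoc and highest for Slc1a3, Gja1, Kcnj10 and Aqp4.

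Pairs of the same labelled tissue were then read side by side, as values with no test. In replicate 1, labelled cortex, the log2 ratio of RGFP109 to NaCl had a median size of 0.35 over the 10 genes and 0.34 over all genes tested. In replicate 2, labelled amygdala, it was 0.13 over the 10 genes and 0.17 over all genes. The largest values were those of Slc1a2 (0.99 in replicate 1 and 0.40 in replicate 2) and Kcnj10 (-0.996 and 0.06). Slc1a2, Aldh1l1 and Sox9 had the same sign in both pairs, and the other 7 did not. The share of all genes tested with opposite signs was not computed. Fitting the replicate number, and with it the labelled tissue, as a block left 0 of the 10 past the threshold.

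Across the same 4 libraries, those labelled amygdala were set against those labelled cortex. None of the 10 genes and none of the 17565 genes tested passed (0% in each direction by edgeR), with 1970 genes, or 11.2%, at an unadjusted p under 0.05, and 2 of the 10 among them. Of the 10, 5 were above 0, against 46.7% of all genes. Gjb6, at 80.4 and 88.5 CPM in the amygdala-labelled libraries and 51.4 and 38.1 CPM in the cortex-labelled ones, had a log2 fold change of 0.92 (SE 0.194, adjusted p = 0.290). It passed with DESeq2 (adjusted p = 0.0364). Sox9, at 29.8 and 22.5 CPM against 45.1 and 35.0 CPM, had a log2 fold change of -0.62 (SE 0.226, adjusted p = 0.429). Their groups did not overlap, as was also so for Glul (0.27, both above) and Slc1a3 (-0.24, both below), where 21.6% of all genes were above and 22.4% below.

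The marker levels bear on this comparison, since the cortex group holds the library with olfactory bulb genes and the amygdala group carries striatum genes. Whether either group holds another tissue than its label was not tested. Each fit without 1 cortex-labelled library leaves the other alone in its group, so that the spread comes from the amygdala-labelled pair only and the lone library is assumed to vary like them. Without NaCl replicate 1, 2 of the 10 were higher and 1 lower by edgeR, namely Gjb6 (0.73, adjusted p = 0.000551) and Glul (0.44, adjusted p = 0.00259) higher and Sox9 (-0.77, adjusted p = 0.000577) lower, and 1540 genes in all (8.27%) were higher and 1025 (5.51%) lower. Without RGFP109 replicate 1, which left the NaCl library as the only cortex-labelled one, 3 of the 10 were higher and 3 lower, and 2831 genes in all (15.1%) were higher and 2552 (13.6%) lower. Region, library and animal cannot be told apart in these fits.

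On the FPKM scale, the order of levels was led in all 4 groups by Glul, from 353 ± 1.44 FPKM in the RS group to 508 ± 30.9 FPKM in the NaCl group (mean ± SD, n = 2). Slc1a2, Aldoc and Slc1a3 followed in that order in the PTS + RS, RS and RGFP109 groups, with Slc1a2 and Aldoc overlapping in the RGFP109 group. In the NaCl group Aldoc (206 ± 42.8 FPKM) stood before Slc1a2 (144 ± 55.6 FPKM), and the libraries of the pair overlapped. Kcnj10, Aqp4, Gja1 and Gjb6 took the middle places, and Aqp4 overlapped Kcnj10 in the PTS + RS group (47.8 ± 10.2 and 46.6 ± 1.71 FPKM) but lay below it in the RS group (23.8 ± 1.77 and 33.9 ± 2.80 FPKM). Sox9 and Aldh1l1 were the lowest in every group, with Sox9 above Aldh1l1 in the PTS + RS and RS groups and below it in the others. The 2 tables were normalised separately, and levels were not tested between them.

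The 10 genes did not follow a single pattern over the 8 libraries. Their mean log2 CPM, centred within each table, was 0.26 and 0.12 in the PTS + RS libraries, -0.18 and -0.20 in the RS libraries, and between -0.04 and 0.07 in the other 4. As a description over 8 libraries that share 2 tables, Gja1 (Pearson r 0.935) and Aqp4 (0.932) followed this mean most closely and Sox9 (0.166) least, each being part of the mean. Outside the 10, those most like it among 8015 genes of at least 20 CPM in both tables included Tjp1 (r 0.997), a tight junction scaffold, Tbc1d19 (0.987), Cops2 (0.984), a COP9 signalosome subunit, and Cx3cr1 (0.984), the fractalkine receptor of microglia. The points of each correlation share the same libraries and the same contrast between stroke and no stroke, so these values say only that the profiles look alike.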

How the data were processed

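RNA-seq of mouse brain tissue was analysed from 2 deposited tables holding 8 libraries. According to the methods and the submitters' processing notes, the authors aligned reads to GRCm38 with STAR 2.4.0, counted them per gene with HTSeq 0.6.1 and derived FPKM; the deposited counts are raw and the deposited FPKM values equal count over length over 1 factor per library. The authors' columns of fold changes and p-values, and 8 normalised per-library columns, were not used. The labels and the methods name different library kits, so use of strand is open. Genes overlapping the 10 on either strand had at most 70 counts in any library.

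Each table was fitted alone with edgeR 4.0.16 (R 4.3.3): filterByExpr, TMM, then glmQLFTest; p-values were adjusted by Benjamini-Hochberg across every gene tested, and the threshold was an adjusted p under 0.05. CPM uses TMM-scaled library sizes. The test was checked on simulated counts with no tissue difference between libraries. Their spread was the same for every gene. It was set below the 32.1% biological coefficient of variation of RGFP109 against NaCl and also below the 11.4% of PTS + RS against RS. The check thus does not cover RGFP109 against NaCl or the comparison between tissue labels, and it was easier than the stroke comparison. Fits that left out a library were not simulated. Alternatives were DESeq2 1.42.0, its size factors, limma 3.58.1 (voom, and trend on log2 of FPKM plus 1 or plus 0.1), no filter, a replicate block and leaving out each library.

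The 10 genes, the 13 other lists and the genes named (all 10 members, up to 5 genes past the threshold per other list, and the 5 most alike profiles) were chosen with earlier results of these data known. Of the 5 most alike profiles, 1 is not reported here. Same-numbered RGFP109 and NaCl libraries share a labelled tissue (correlation of their deviations 0.299).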

Additional observations from a re-analysis of the deposited data

Results flagged for a closer look

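For 7 of the 10 genes, the log2 ratio of RGFP109 to NaCl had opposite signs in the pair labelled cortex (replicate 1) and the pair labelled amygdala (replicate 2). The share of all genes tested with opposite signs was not computed, so whether 7 of the 10 is unusual is not known. Replicate 1 minus replicate 2 was -0.48 for Slc1a3, -0.40 for Gja1, -1.05 for Kcnj10, -0.42 for Aqp4 and -0.33 for Glul, so these stood lower with RGFP109 in replicate 1 and higher in replicate 2. It was 0.57 for Gjb6 and 0.49 for Aldoc, which stood higher in replicate 1 and lower in replicate 2. With 1 library of each treatment per labelled tissue, these differences were not tested. Each of the values rests on 1 library per arm, among them NaCl replicate 1, which carried olfactory bulb genes (1286 CPM), and RGFP109 replicate 1, which carried choroid plexus genes (1528 CPM); the part of either was not tested.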

How the results depend on the processing

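In PTS + RS against RS, 521 genes were higher and 103 lower; without a filter these counts were 1119 and 716, with limma-trend on FPKM plus 1 they were 304 and 68, higher genes were 314 with FPKM plus 0.1, and lower genes were 188 with DESeq2. With either FPKM offset, 1 of the 10 passed (Slc1a3). The PTS + RS and RS libraries share only a replicate number (correlation of deviations 0.035); with it as a replicate block, 687 genes were higher, 228 lower and 4 of the 10 passed. Leaving out 1 library gave 339 to 1413 genes higher, 32 to 1278 lower and 1 to 7 of the 10 higher. Under it Sox9 ran from -0.081 (without PTS + RS replicate 1) to 0.23 and Aldh1l1 from -0.021 (without RS replicate 1) to 0.35 on the log2 scale.

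For RGFP109 against NaCl, leaving out 1 library gave 0 to 15 genes higher and 0 to 78 lower, both highest without NaCl replicate 2. Values of 7 of the 10 changed sign under it: Slc1a3 from -0.30 to 0.16, Gja1 from -0.035 to 0.29, Gjb6 from -0.43 to 0.80, Kcnj10 from -0.94 to 0.0017, Aqp4 from -0.32 to 0.052, Glul from -0.35 to 0.10 and Aldoc from -0.084 to 0.35. Without NaCl replicate 1 itself, Slc1a3, Gjb6, Kcnj10, Aqp4 and Aldoc turned. The replicate block changed no call of the 10.

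For amygdala against cortex labels, no filter gave 13 genes higher, each FPKM offset 1, and DESeq2 314 higher and 102 lower with 1 of the 10 higher (Gjb6). Leaving out 1 library gave 0 to 2831 genes higher, 0 to 2552 lower, and 0 to 3 of the 10 in each direction. Under it Gja1 ran from -0.30 to 0.038, Kcnj10 from -0.92 to 0.083, Aqp4 from -0.34 to 0.0080, Aldh1l1 from -0.013 to 0.14 and Aldoc from -0.0060 to 0.36. The cause of these shifts was not tested.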

Other observations

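The 10 genes together took 0.744% and 0.667% of all counts in the PTS + RS libraries, 0.549% and 0.552% in the RS libraries, 0.599% and 0.693% in the RGFP109 libraries and 0.543% and 0.612% in the NaCl libraries. Slc1a2 had the most counts of the 10 in 7 of the 8 libraries; in the NaCl library of replicate 1 Glul had 28712 counts and Slc1a2 24533.

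The NaCl library of replicate 1 also stood apart in astrocyte transport genes outside the 10, named here after their values were seen. Slc6a11, the GABA transporter GAT-3, stood at 785 CPM there against 127 to 182 CPM in the other 3 libraries of its table. Slc38a3, a glutamine transporter, stood at 223 CPM against 63.1 to 83.3 CPM. Neither passed the test between RGFP109 and NaCl.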
